A study of Mus musculus with 9 samples.

Results

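The genes described here are 9 enzymes of tryptophan breakdown, taken by their symbols: Tdo2, Ido1, Ido2, Afmid, Kmo, Kynu, Haao, Qprt, and Acmsd. All 9 were found among the 24341 gene rows of the expression table. The values come from bulk livers of wild-type C57BL/6 mice taken 48 hours after treatment. The anti-CD40 group (3 mice, numbered 2, 5, and 9) received the agonist antibody FGK45, which switches on the immune receptor CD40, and the control group (6 mice, numbered 3, 4, 7, 8, 11, and 12) is labelled PBS. All 9 mice shared strain, genotype, tissue, and time point. The labels give neither age nor sex, and the study's general methods describe sex-matched young adults. Treated mice without a fall in blood B cells were excluded in the study, and whether that rule touched these livers is not stated.

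Tryptophan that is not used for protein is broken down mainly in the liver. The dioxygenases TDO2, IDO1, and IDO2 open its indole ring, the formamidase AFMID releases kynurenine, and KMO, KYNU, and HAAO carry kynurenine on to aminocarboxymuconate semialdehyde. That compound closes to quinolinate, which QPRT uses for the synthesis of NAD, unless ACMSD diverts it toward picolinate and the glutarate branch. TDO2 is the main tryptophan-degrading enzyme of hepatocytes, whereas IDO1 is known for its induction by interferon gamma in antigen-presenting cells and other cells.

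Expression was measured from the 3′ end of transcripts and is given as FPKM, a read level scaled for transcript length and for the mapped total. In 3′ data the scaling for length distorts levels between genes but drops out of a gene's own fold change, so levels are compared gene by gene. A value of 0.01 is the floor of the table. By the steps between low values, which gave whole reads (within 0.05 of a read) for 72.6% of 2840 low genes, the libraries differed in depth from 0.870 to 1.13 of their geometric mean, and the absolute depth is unknown. The liver identity of the samples was checked with 10 hepatocyte markers, all above the floor in every mouse. A pair of libraries stood apart. The summed FPKM of 10 pancreatic acinar genes was 1058 in anti-CD40 mouse 5 and 27.9 to 190 in the other mice, and that of 6 erythroid genes was 50531 in control mouse 4 and 4176 to 14320 in the others. Most of the acinar sum in the other mice came from a single gene, Cela1, at 27.0 to 188 FPKM. In anti-CD40 mouse 5 Cela1 was at 315 FPKM. The labels give neither cage nor batch, so differences of that kind between the groups could not be allowed for. The p-values treat the mice as independent and rest on the spread between livers.

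After anti-CD40, transcripts of most of these enzymes were lower. Afmid and Haao fell most, to 16.3% and 23.9% of the control mean, Tdo2, Ido2, and Qprt fell to between 50.2% and 58.8%, and Kmo to 77.3%. Kynu and Acmsd did not pass the test. Ido1, at the floor in every control mouse, was detected in every anti-CD40 mouse. The test was limma, a linear model that pools the spread of all genes, on log2(FPKM + 0.1). It covered the 13807 genes whose mean FPKM reached 0.1, with adjustment over all of them at 0.05. It called 45.1% of all genes tested, 23.5% of them higher and 21.7% lower, both as shares of all tested. Ido1 passed the filter on low values only through the anti-CD40 mice (mean over the 9 mice 0.105), so it had to differ and is left out of the count. Of the other 8 enzymes, 6 were lower, 0 higher, and 2 did not pass. The groups did not overlap in these 6 genes, whereas 42.4% of all genes tested had groups that did not overlap. Over all 9 genes, with Ido1 included, the median log2 fold change was -0.76, against 0.0056 over all genes tested. Leaving out the serum amyloid genes Saa1, Saa2, and Saa3 and making the totals equal moved the latter to 0.35 and gave 5635 genes higher and 1647 lower, in place of 3240 and 2990. In that setting 5 of the enzymes were lower (Tdo2, Ido2, Afmid, Haao, and Qprt).

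**Figure D1:**
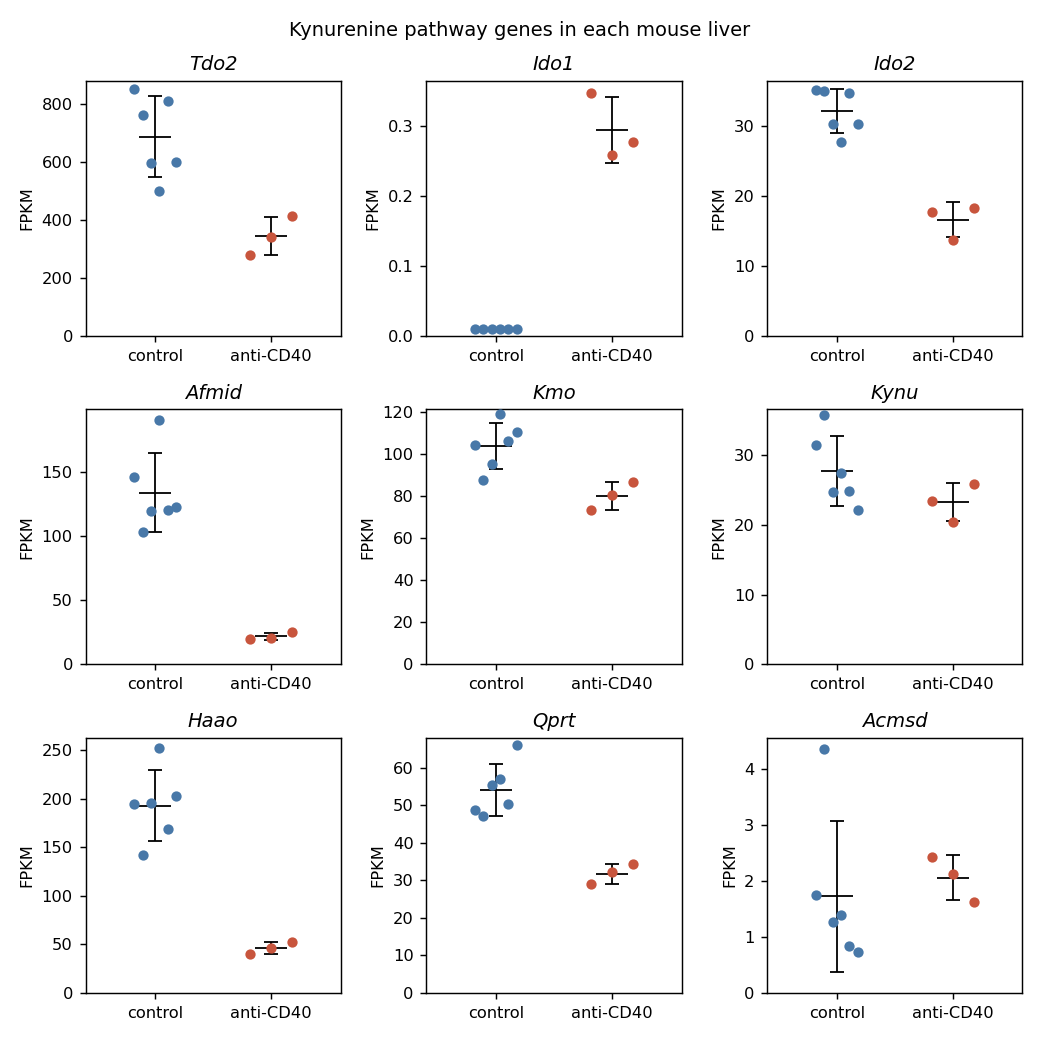
FPKM of each enzyme gene in each mouse liver on linear axes that start at 0, with control mice in blue (n = 6) and anti-CD40 mice in red (n = 3); black bars show the mean and SD. The groups are apart in 7 of the 9 panels, and in 42.4% of all genes tested. One of the 7 is Ido1, at the floor in every control mouse, which had to differ. The groups overlap for Kynu and Acmsd, and for Acmsd control mouse 4 lies at 4.35 FPKM.

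Tdo2, Afmid, Haao, and Qprt were each lower. The 250 bases upstream of their RefSeq transcription starts (GRCm38.p6, the mm10 assembly) are shown, each written 5′ to 3′ on the strand of its gene. Kmo was lower too, and its window was searched but is not shown. Capitals mark matches, on either strand, to the letters searched: TTCNNNGAA (a STAT site), GAAANNGAA (an interferon-response element), GCGTG (the aryl hydrocarbon receptor core), TTGCNNAA (C/EBP), GTTAATNAT (HNF1), AGGTCA (a nuclear receptor core), and GGANTTTCC (NF-κB). The stretches lie at chr3:81975729-81975978 on the minus strand (Tdo2), chr11:117825669-117825918 on the plus strand (Afmid), chr17:83846791-83847040 on the minus strand (Haao), and chr7:127122030-127122279 on the minus strand (Qprt). GENCODE M21 places the outer end of Tdo2, Haao, and Qprt farther upstream than these starts.
Tdo2: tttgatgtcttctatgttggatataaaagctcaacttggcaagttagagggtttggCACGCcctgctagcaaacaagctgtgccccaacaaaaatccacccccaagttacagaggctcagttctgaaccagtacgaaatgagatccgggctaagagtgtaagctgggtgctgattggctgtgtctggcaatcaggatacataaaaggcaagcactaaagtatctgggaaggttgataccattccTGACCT
Afmid: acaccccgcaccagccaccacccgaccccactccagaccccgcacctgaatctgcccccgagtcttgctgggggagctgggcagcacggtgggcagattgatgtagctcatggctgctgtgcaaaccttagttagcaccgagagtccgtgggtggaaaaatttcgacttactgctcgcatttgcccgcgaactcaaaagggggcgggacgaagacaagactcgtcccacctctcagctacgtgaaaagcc
Haao: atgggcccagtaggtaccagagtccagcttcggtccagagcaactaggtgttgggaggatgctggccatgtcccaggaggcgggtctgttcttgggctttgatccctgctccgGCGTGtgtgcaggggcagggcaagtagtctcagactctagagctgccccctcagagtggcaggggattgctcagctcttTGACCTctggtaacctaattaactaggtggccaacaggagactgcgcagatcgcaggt
Qprt: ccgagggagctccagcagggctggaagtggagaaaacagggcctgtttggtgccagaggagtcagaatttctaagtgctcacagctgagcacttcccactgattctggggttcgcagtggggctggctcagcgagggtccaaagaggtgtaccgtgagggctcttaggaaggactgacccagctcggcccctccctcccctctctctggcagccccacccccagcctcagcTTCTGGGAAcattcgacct
AGGTCA, read on the opposite strand as TGACCT, ended at the last base before the start in Tdo2 and stood 58 bases upstream in Haao. It was also present in the Acmsd window, and in 14.0% of all 32851 windows of the same length. GCGTG was present in Tdo2 and Haao and in 28.2% of all windows. TTCNNNGAA was present only in Qprt among the members searched, 19 bases upstream, and in 7.02% of all windows. No match to GAAANNGAA, TTGCNNAA, GTTAATNAT, or GGANTTTCC was present in any of the 6 members with a window, and Afmid and Kmo held none of the 7 patterns. GAAANNGAA was present in 7.13% of all windows, TTGCNNAA in 9.56%, GTTAATNAT in 0.737%, and GGANTTTCC in 1.07%. The matches are letters in a window and no binding was measured. No window was at hand for Ido1, Ido2, and Kynu.

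The first step of the pathway is shared by 3 dioxygenases. Tdo2 (chromosome 3, from 81958414 to 81975728), the main tryptophan dioxygenase of hepatocytes, had FPKM of 280, 341, and 414 in anti-CD40 mice 2, 5, and 9. In control mice its lowest, median, and highest values were 501, 682, and 851. Every anti-CD40 mouse was below every control mouse. The means were 345 ± 67.1 (SD, n = 3) and 688 ± 141 (SD, n = 6), a 1.99-fold lower level. The log2 fold change was -0.99 (SE 0.19, 95% interval -1.42 to -0.56), with limma adjusted p = 0.00198 and exact permutation p = 0.0238, the smallest that the 84 splits of the mice allow. With quantile normalization Tdo2 missed the threshold (log2 fold change -0.53, limma adjusted p = 0.0574).

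Ido2, the paralog of Ido1 with a lower affinity for tryptophan, was also lower. It was measured at 17.8, 13.8, and 18.4 FPKM in the treated mice 2, 5, and 9, and in control mice the lowest was 27.8, the median 32.5, and the highest 35.2. The groups did not overlap, and the log2 fold change was -0.95 (SE 0.13, limma adjusted p = 1.89e-04). Ido1 and Ido2 are neighbors on the minus strand of chromosome 8, with Ido2 from 24531892 to 24576333 and Ido1 from 24584133 to 24596952, and 7799 bases lie between them.

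Ido1, the interferon-induced dioxygenase, moved the other way. It was at the floor of 0.01 in all 6 control mice, and was measured at 0.347, 0.258, and 0.277 FPKM in the treated mice 2, 5, and 9. These values correspond to 10, 7, and 7 reads, as the smallest whole numbers that match, and those of the control mice to 0 reads each. Depth was taken into account, and 3 reads were allowed over all controls. Against these, the 24 reads of the treated mice, taken as they are, gave a 14.7-fold higher level. This figure allows for counting error in the controls only. It does not allow for counting error in the treated reads or for differences between mice. The log2 fold change of 1.83 depends on the pseudocount, running from 0.36 with 1 to 3.92 with 0.01, and is given without a test.

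IDO1 is a product of antigen-presenting and other immune-stimulated cells, and lists of such cells moved in both directions. Over all genes tested, 23.5% were higher and 21.7% lower. Kupffer cells are resident macrophages of the liver that also present antigen, and 7 of their 7 markers were lower (summed FPKM 40.5 to 52.9 against 290 to 461 in controls). Of the 6 dendritic cell markers tested, 5 were higher, or 4 of 5 without Flt3, which passed the filter only through the anti-CD40 mice. The summed FPKM of the list was 9.38 to 11.7 in anti-CD40 mice and 2.57 to 4.21 in controls, with Cd209a at the floor in all anti-CD40 mice. Of 8 monocyte and macrophage markers, 6 were higher and 0 lower (summed FPKM 277 to 394 against 42.3 to 76.9), and of 7 neutrophil markers tested 7 were higher (4213 to 5201 against 18.3 to 156), or 5 of 5 without Cxcr2 and Ngp, whose control means were under the filter. Their part in the values of Ido1 was not tested.

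Afmid, the formamidase that turns N-formylkynurenine into kynurenine, fell more than any other enzyme of the 9. It was measured at 19.8, 20.5, and 25.3 FPKM in the treated mice 2, 5, and 9, and in control mice the lowest was 104, the median 122, and the highest 190. Even the highest treated value was far below the lowest control value. The means of 21.9 ± 2.98 (SD, n = 3) and 134 ± 30.8 (SD, n = 6) differed 6.12-fold, a log2 fold change of -2.59 (SE 0.18, limma adjusted p = 2.88e-06), and only 0.971% of all genes tested had a lower log2 fold change. In the table Afmid shares its position on chromosome 11, from 117815519 to 117839908, with Tk1, the thymidine kinase gene on the opposite strand. Exons of the pair overlap in GENCODE M21, although not within the last 2000 bases of Afmid, near the end from which 3′ reads are made, where only a read-through gene, Gm20708, overlaps it. Tk1 was lower as well (4.57 ± 0.106, n = 3, against 14.8 ± 1.97, n = 6, SD; limma adjusted p = 5.83e-06). The setting for strand in the read counting is not given in the sources used here.

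KMO, which hydroxylates kynurenine, and KYNU, which cleaves kynurenine and its hydroxylated form, act on the same substrate. Kmo was slightly lower, and Kynu did not pass the test. Kmo (chromosome 1, from 175632193 to 175660853) had FPKM of 73.4, 80.2, and 86.7 in anti-CD40 mice 2, 5, and 9, and in control mice the lowest was 87.5, the median 105, and the highest 119. The groups did not overlap, but the nearest values, 86.7 and 87.5, were almost alike. The log2 fold change was -0.37 (SE 0.12, limma adjusted p = 0.0263). This call of Kmo was lost with quantile normalization (log2 fold change 0.0069, limma adjusted p = 0.960) and with the serum amyloid genes left out and totals made equal (-0.0017, limma adjusted p = 0.991). It was also lost without anti-CD40 mouse 2 (-0.31, limma adjusted p = 0.120) and without mouse 5 (-0.37, limma adjusted p = 0.0722).

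Kynu (chromosome 2, from 43555325 to 43683048) had FPKM of 23.4, 20.4, and 25.9 in anti-CD40 mice 2, 5, and 9, within or just below the control range, whose lowest, median, and highest values were 22.1, 26.2, and 35.7. Its log2 fold change was -0.24 with a 95% interval from -0.59 to 0.11 (limma adjusted p = 0.243), so a fall to about the level seen for Kmo lies inside the interval.

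HAAO, the iron-dependent dioxygenase that opens the ring of 3-hydroxyanthranilate, was the other enzyme with a large fall. Haao (chromosome 17, from 83831354 to 83846790) had FPKM of 40.2, 45.7, and 52.5 in anti-CD40 mice 2, 5, and 9, and in control mice the lowest was 142, the median 195, and the highest 252. The groups were far apart. The means of 46.1 ± 6.19 (SD, n = 3) and 193 ± 36.6 (SD, n = 6) differed 4.18-fold, with a log2 fold change of -2.05 (SE 0.17, limma adjusted p = 7.52e-06).

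Downstream of HAAO the pathway forks. Qprt (chromosome 7, from 127107770 to 127122029), whose product commits quinolinate to NAD, had FPKM of 29.0, 32.2, and 34.3 in anti-CD40 mice 2, 5, and 9, and in control mice the lowest was 47.3, the median 52.9, and the highest 66.2. All anti-CD40 mice were below all control mice, with a log2 fold change of -0.76 (SE 0.13, limma adjusted p = 6.88e-04).

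Acmsd (chromosome 1, from 127729413 to 127774054 in the table), the decarboxylase that draws the same intermediate away from NAD, was the enzyme with the widest spread. It was measured at 2.42, 2.12, and 1.63 FPKM in the treated mice 2, 5, and 9, and in control mice the lowest was 0.722, the median 1.34, and the highest 4.35. The treated mice lay inside the control range. The log2 fold change was 0.47 with a 95% interval from -0.53 to 1.48 (limma adjusted p = 0.419). Control mouse 4, the library with the high erythroid genes, set the upper end of the controls. Without it the log2 fold change was 0.78 and passed the threshold (limma adjusted p = 0.0399). Acmsd shares its position in the table with 2900009J06Rik, an antisense gene whose exons overlap it, though not in its last 2000 bases. The antisense gene was higher after anti-CD40 (9.94 ± 1.80, n = 3, against 5.89 ± 1.66, n = 6, SD; limma adjusted p = 0.0197), with overlapping groups, and its highest control value was also that of mouse 4. Whether reads of the antisense gene reached Acmsd was not tested.

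**Figure D2:**
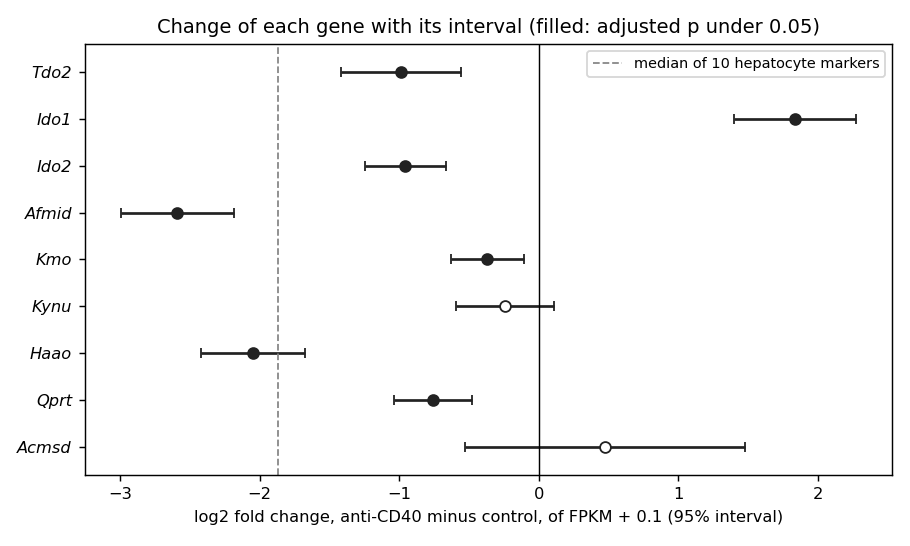
Log2 fold change of each enzyme gene, anti-CD40 minus control on the log2(FPKM + 0.1) scale, with 95% intervals from limma; filled points have an adjusted p under 0.05, and the dashed line is the median of 10 hepatocyte markers at -1.87. Afmid and Haao lie to the left of that line, and the intervals of Kynu and Acmsd include 0. Ido1 lies to the right of 0 and passed the filter on low values only through the anti-CD40 mice. Its filled point and interval are therefore not read as a test, and its size depends on the pseudocount.

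To ask whether enzymes at the same branch changed unequally, 5 pairs were compared by the difference of their log2(FPKM + 0.1) within each mouse, in which transcript length cancels between the groups. Haao was lower relative to Acmsd. In the treated mice 2, 5, and 9 the difference was 4.00, 4.37, and 4.93, against 5.00 to 7.95 in control mice, so that the groups were separate but nearly touched at control mouse 4. The change was -2.52 (exact permutation p = 0.0238, the smallest possible). Adjusted over the 5 pairs it was 0.0397, but 2 of these pairs hold Ido1, and adjusted over the 3 pairs without Ido1, a choice made after the data were seen, it was 0.0714 and missed the threshold. Qprt against Acmsd changed by -1.23, with overlapping groups (3.53 to 4.31 against 3.41 to 6.33, exact permutation p = 0.119, adjusted over the 5 pairs 0.149). Without control mouse 4 it changed by -1.58 (exact permutation p adjusted over the 5 pairs 0.0446, and over the 3 pairs without Ido1 0.0536).

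The Ido1 pairs had the other sign. Ido1 against Tdo2 changed by 2.82, from between -12.9 and -12.2 in control mice to between -10.1 and -9.29 in anti-CD40 mice, and Ido1 against Ido2 changed by 2.79. As Ido1 was at the floor in all controls, both sizes depend on the pseudocount, and they are given as a description with no test. Kmo against Kynu changed by -0.13, with overlapping groups (exact permutation p = 0.643), and the change was 0.083 with quantile normalization.

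**Figure D3:**
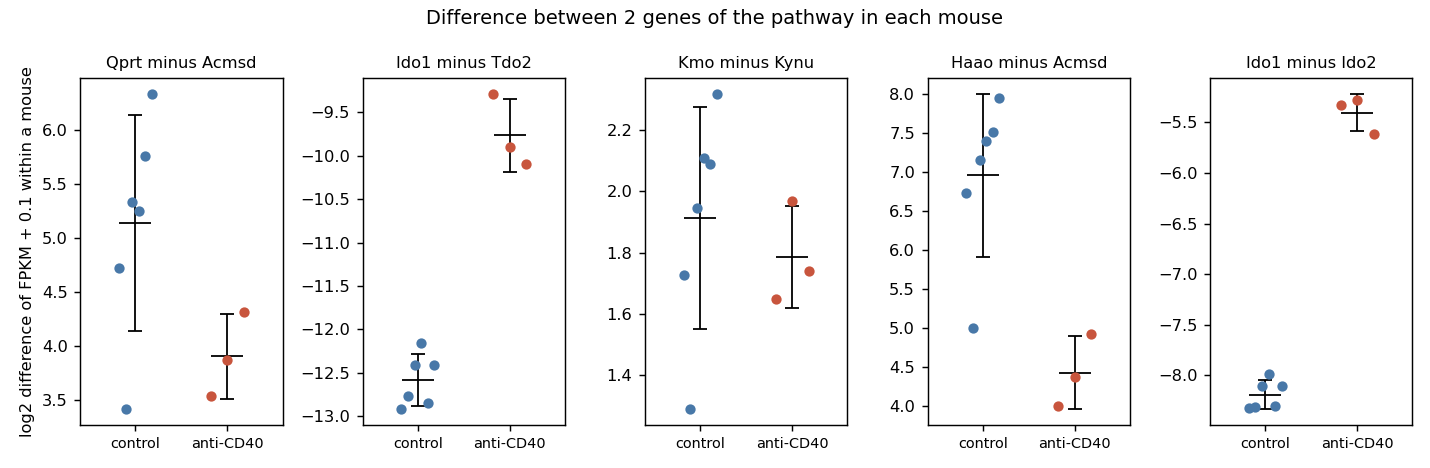
Difference of log2(FPKM + 0.1) between 2 enzyme genes in each mouse, with control mice in blue (n = 6), anti-CD40 mice in red (n = 3), and mean and SD in black; the vertical axes do not start at 0. The groups are apart for Ido1 minus Tdo2, Ido1 minus Ido2, and Haao minus Acmsd, and overlap for Qprt minus Acmsd and Kmo minus Kynu.

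Across single mice the enzymes kept some order. Anti-CD40 mouse 9 was the highest of the 3 treated mice in 7 genes, and mouse 2 was the highest in Ido1 and Acmsd. Control mouse 4 was the lowest control in Afmid, Kmo, Haao, and Qprt and the highest in Kynu and Acmsd. The summed FPKM of the hepatocyte markers followed the same mice: it was 11137 in mouse 9 against 9020 and 10715 in mice 2 and 5, and 30368 in control mouse 4 against 39168 to 51698 in the other controls. Of these 10 markers, 8 were lower after anti-CD40, Apob was higher, and Tat did not pass, with a median log2 fold change of -1.87. Over all genes tested, 21.7% were lower and 23.5% higher. In bulk liver, fewer hepatocytes and less RNA per hepatocyte cannot be told apart. The part of these markers in the lower enzyme values was not tested.

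Set against the mean of the hepatocyte markers in the same mouse, which changed by -1.48 on the log2 scale, the enzymes divided. Afmid was lower than the markers by a further 1.11 and Haao by 0.57, written as changes of -1.11 and -0.57. Tdo2 changed by 0.49, Ido2 by 0.52, Qprt by 0.72, Kmo by 1.11, Kynu by 1.24, and Acmsd by 1.95 relative to the markers. The groups did not overlap in these relative values for Tdo2, Afmid, Kmo, Kynu, Haao, and Qprt, and they overlapped for Ido2 and Acmsd. The marker mean was itself lower with the groups apart, so a gene with unchanged FPKM rises in this measure. The share of all genes with groups apart in this measure was not computed. These relative values are a description and were not tested.

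Around the 9 enzymes, 8 lists of related genes held 52 genes, of which 46 were tested. In these lists 14 genes were higher, 19 were lower, and 13 did not pass, with a median log2 fold change of -0.39. Over all genes tested, 23.5% were higher and 21.7% lower, and the counts of each list below stand against these shares. Leaving out 3 genes with a mean under the filter in 1 group (Cyp1b1, Gpr35, and Dhtkd1), 12 of 43 were higher and 19 lower. Some share their position in the table with another gene and could share reads, among them Il4i1, Gcdh, Ddc, Nampt, Sirt3, Parp9, and Tiparp.

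The kynurenine aminotransferases, which form kynurenate and xanthurenate, were lower in 4 of 4 genes. The count was 3 of 4 with quantile normalization, without the Saa genes at equal totals, or without anti-CD40 mouse 2. Kyat1, listed in the table as Ccbl1, had FPKM of 19.4, 16.1, and 17.7 in anti-CD40 mice 2, 5, and 9 and 68.0 to 134 in the controls (log2 fold change -2.39, SE 0.19, limma adjusted p = 6.91e-06). Aadat fell to 6.84 ± 0.604 (n = 3) from 21.7 ± 1.89 (n = 6, SD), a log2 fold change of -1.65. Kyat3, listed as Ccbl2, and Got2 had log2 fold changes of -1.03 and -0.97, and the groups overlapped for Got2. In the glutarate branch beyond ACMSD, 2 of 3 genes were lower. Gcdh, the glutaryl-CoA dehydrogenase, fell to 62.4 ± 2.15 (n = 3) from 219 ± 19.6 (n = 6, SD), and Aldh8a1 to 52.0 ± 3.39 from 96.6 ± 7.83. Dhtkd1 rested on 2 to 12 reads in each mouse, with a log2 fold change of -0.51 that did not pass (limma adjusted p = 0.0988), although the groups did not overlap.

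Other users of tryptophan and its amines divided by direction. Of 5 tested, 3 were lower, with Maob, a monoamine oxidase, lowest (log2 fold change -1.40, limma adjusted p = 5.91e-05), and 2 were higher. Il4i1, a secreted oxidase of aromatic amino acids made by myeloid and B cells, had FPKM of 6.61, 7.29, and 3.41 in anti-CD40 mice 2, 5, and 9 and 0.241 to 0.419 in the controls (log2 fold change 3.70, SE 0.25, limma adjusted p = 2.29e-06). Its position is shared with Nup62-il4i1 and other genes, so the value is uncertain. The other was Wars, the interferon-responsive tryptophanyl-tRNA synthetase, named here after its values were seen (8.59 ± 1.04, n = 3, against 4.02 ± 0.946, n = 6, SD). Tph2 was at the floor in every mouse, and Tph1, which starts serotonin synthesis, had 1 read in each group.

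Of 4 transporter genes tested, Slc7a5 and Slc7a8 were higher and Slc16a10, an aromatic amino acid carrier, was lower. The changes were small, with log2 fold changes of 0.63 (limma adjusted p = 0.0405), 0.43 (0.0134), and -0.67 (0.0129). Without anti-CD40 mouse 2 none of the 3 passed, and without mouse 9 neither rise did. Only 1 rise passed without anti-CD40 mouse 5 or without control mouse 3, 4, 7, or 8, and without control mouse 4 there were 2 genes lower. Neither rise passed with quantile normalization, 1 did with no filter on low values, and the fall of Slc16a10 was lost without the Saa genes at equal totals. Slc3a2, the partner chain of SLC7A5, had a log2 fold change of -0.47 (limma adjusted p = 0.101). Slc6a19 was not tested, as it had 0 reads in anti-CD40 mice and 6 over the controls.

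NAD can also be made from nicotinamide and nicotinate. Of 8 genes of NAD synthesis and salvage tested, 4 were lower and 1 higher. Nampt, the rate-limiting enzyme of nicotinamide salvage, had FPKM of 58.8, 44.4, and 44.9 in anti-CD40 mice 2, 5, and 9 and 20.7 to 28.9 in the controls (log2 fold change 0.97, SE 0.13, limma adjusted p = 2.19e-04). Nmnat1, which joins the adenylate part, had the largest fall, -1.31 (limma adjusted p = 0.0280), but its value in mouse 5 was 1.03, inside the control range. Without anti-CD40 mouse 9, or with no filter on low values, 2 genes of this list were lower. Without the Saa genes and with equal totals the balance turned, with 2 genes higher and 1 lower. Of the 3 genes that dispose of nicotinamide, Aox1 and Aox3 were lower (log2 fold changes -0.86 and -2.50, with 1 lower without the Saa genes), and Nnmt, the methyltransferase, had a log2 fold change of 0.11 (limma adjusted p = 0.787).

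Of 11 NAD-consuming enzymes tested, 6 were higher and 2 lower, or 7 and 1 without the Saa genes. Bst1, an ectoenzyme that cleaves NAD, rose to 4.26 ± 0.616 (n = 3) from 1.07 ± 0.681 (n = 6, SD), a log2 fold change of 2.09 (limma adjusted p = 0.00313), and the mitochondrial deacylase gene Sirt3 fell to 20.5 ± 0.201 from 48.7 ± 4.10. Cd38, a related NAD hydrolase named after its values were seen, had a higher level in every treated mouse (6.06 to 8.79 FPKM) than in every control (2.77 to 4.91 FPKM; limma adjusted p = 8.71e-04). Kynurenine and kynurenate are ligands of the aryl hydrocarbon receptor and of GPR35. Of 8 genes in that list tested, 3 were higher and 1 lower. Among the higher ones Cyp1b1 and Gpr35 had control means under the filter and passed it only through the anti-CD40 mice. Of the other 6 genes 1 was higher and 1 lower, near the shares of 23.5% and 21.7% over all genes tested. At a mean FPKM of 1 or more, 1 gene was higher. Cyp1a2, a hepatocyte target of the receptor, fell to 16.7 ± 1.19 (n = 3) from 282 ± 97.9 (n = 6, SD), whereas Cyp1b1 was at 0.809 ± 0.240 and 0.0696 ± 0.0620. Ahr itself did not pass the test (log2 fold change -0.25, limma adjusted p = 0.206). Without control mouse 4 or 11, or with quantile normalization, 2 genes of this list were lower. Gpr35, named after its values were seen, had FPKM of 0.459, 0.514, and 0.621 in anti-CD40 mice 2, 5, and 9 and 0.0283 to 0.117 in control mice.

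**Figure D4:**
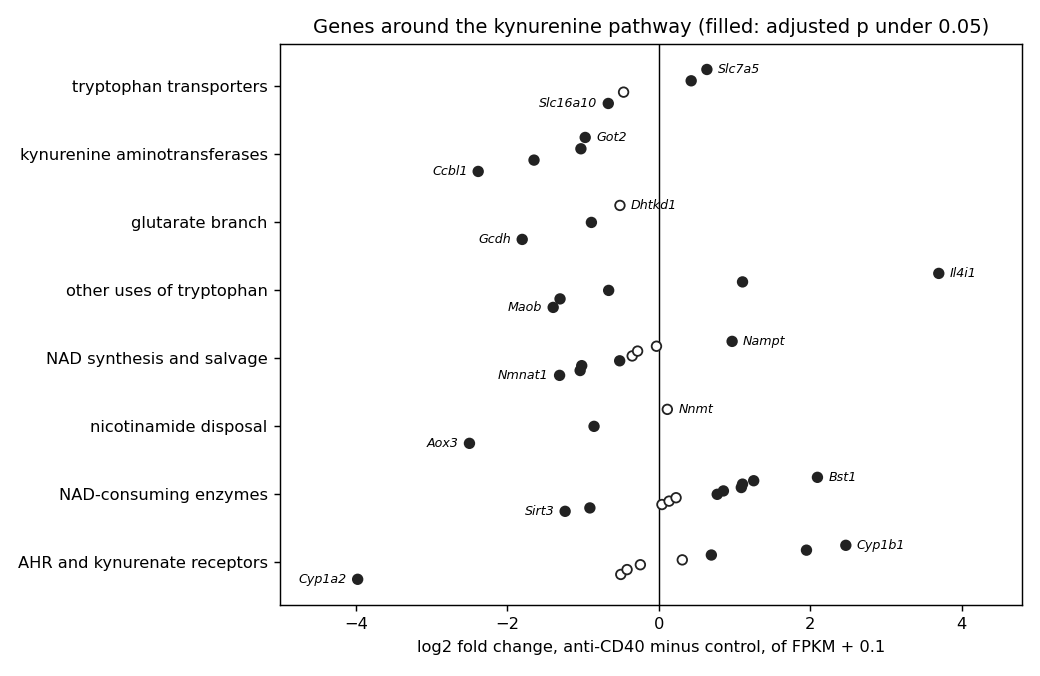
Log2 fold change, anti-CD40 minus control on the log2(FPKM + 0.1) scale, of each of the 46 genes tested in 8 lists around the pathway; filled points have an adjusted p under 0.05 from limma, and the lowest and highest gene of each list is named. All 4 kynurenine aminotransferases lie left of 0, and the furthest points are Cyp1a2 at -3.98 and Il4i1 at 3.70. Cyp1b1 and Gpr35 passed the filter on low values only through the anti-CD40 mice, so their filled points are not read as a test.

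The genes whose log2(FPKM + 0.1) over the 9 mice was most like that of the enzyme with the largest fall, Afmid, among the 10155 genes whose mean FPKM reached 1, were Gpd1l (Pearson r = 0.999), Nipsnap1 (0.999), and Slc27a5 (0.997). For Ido1 they were Ccl20 (0.998), Gm15056 (0.997), and Stfa3 (0.996). These correlations share the same 9 libraries and include the difference between the groups, and the Ido1 values in controls are all the floor.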

How the data were processed

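Livers of 9 mice (3 anti-CD40, 6 control) were profiled by the authors with QuantSeq 3′ mRNA sequencing. Per the labels and the study's methods, the authors aligned reads to mm10 with STAR and ran Cufflinks and Cuffdiff, and they deposited FPKM values with a floor of 0.01. The annotation and the strand setting are not given in the sources used here. Of 24341 genes, 15 that lacked an estimate in 1 or more mice were dropped, and 24326 remained.

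Groups came from the sample titles. The 13807 genes whose mean FPKM reached 0.1 were tested as log2(FPKM + 0.1), which understates the change of low genes. The test was the trended eBayes of limma 3.58.1 (R 4.3.3, 2-sided), with Benjamini-Hochberg adjustment over all of them at 0.05. Cuffdiff needs the reads and was not rerun. Single values were compared with a 2-sided exact permutation test. Python 3.11.15 with scipy 1.17.1 did the other steps. The model was tested on simulated data. The absolute depth is unknown and limits Ido1 and other low genes.

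The members, the lists, and the pairs were chosen with earlier results of these data known. Named genes were all members, the largest rise and fall among called genes of each list, every gene of lists of up to 5, and the 3 genes most like a pair of members. Alternatives were a pseudocount of 1 or 0.01, a minimum mean FPKM of 1 or none, quantile or median of ratios scaling, leaving out Saa1, Saa2, and Saa3 with equal totals, eBayes without trend or robust, and leaving out each mouse. Chosen after the data were seen were an adjustment over the pairs without Ido1 and counts without genes whose mean reached the filter in only 1 group. Protein sequences were not analysed here.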

Additional observations from a re-analysis of the deposited data

Results flagged for a closer look

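In 6 control mice, the gap between the highest or lowest mouse and its neighbor, as a share of the whole range, was above Dixon's 95% critical value in 2 of 35 sets of values examined, where chance gives about 1.75. For Acmsd the share was 0.717, since control mouse 4 had an FPKM of 4.35 and the next control 1.75. For Slc7a8 the share was 0.633, with control mouse 12 at 2.68 and the next at 2.46. The part of the erythroid or antisense transcripts in the Acmsd value of mouse 4 was not tested.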

How the results depend on the processing

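No paired analysis was possible because the mouse numbers in the labels do not occur in both groups. Afmid, Haao, Ido2, and Qprt kept their direction and their call under every setting run. Ido1 is left out here, since it was tested only where its anti-CD40 values lifted it over the filter. Without Saa1, Saa2, and Saa3 and with equal totals, the median change over all genes went from 0.0056 to 0.35 on the log2 scale, 5635 genes were higher and 1647 lower (in place of 3240 and 2990), 11 of the genes in the 8 lists were lower in place of 19, Kmo was at -0.0017 and Kynu at 0.12. Adjusted over the 3 pairs without Ido1, Haao against Acmsd (-2.52) had an adjusted exact permutation p of 0.0714. With quantile normalization, Tdo2 was at -0.53, Kmo at 0.0069, Kmo against Kynu at 0.083, Haao against Acmsd at -1.93 (adjusted exact permutation p = 0.0794), Ido1 against Ido2 at 2.38, and Ido1 against Tdo2 at 2.09. The cause was not tested, except that Ido1 dropped out of the test at a mean FPKM of at least 1 (0 members higher) and without any 1 anti-CD40 mouse, since its mean then fell under the filter.

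When single mice were left out, log2 fold changes ran from -1.13 to -0.85 for Tdo2, -0.43 to -0.31 for Kmo, -0.32 to -0.15 for Kynu, and 0.29 to 0.78 for Acmsd. Of the members, 5 to 6 were lower. The members higher ran from 0 to 2, but this count includes Ido1 wherever it passed the filter, which is not read as a test. Apart from Ido1, only Acmsd was higher, and only without control mouse 4. Haao against Acmsd ran from -2.91 to -2.31, Qprt against Acmsd from -1.58 to -0.99, Ido1 against Ido2 from 2.72 to 2.89, Ido1 against Tdo2 from 2.59 to 2.99, and Kmo against Kynu from -0.25 to -0.045. Haao against Acmsd, adjusted over the 5 pairs, missed the threshold without any 1 mouse other than control mouse 4, since fewer splits lift the smallest p (adjusted exact permutation p = 0.0595 or 0.119). Over all genes, 2482 to 3560 were higher and 2332 to 3270 lower.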
